A study of Rattus norvegicus with 6 samples.

Results

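Heat shock proteins and protein folding chaperones were examined in endothelial cells from cirrhotic and control rat livers. The members were the probe sets that carry 1 gene symbol of the HSP70, HSP90, HSP60 and small heat shock families, the J-domain proteins, the CCT chaperonin, the protein disulphide isomerases, calnexin, calreticulin, or the FKBP and cyclophilin prolyl isomerases. This rule used names only and gave 108 probe sets of 85 genes, out of 15866 probe sets and 10411 genes on the array. Of these, 82 probe sets of 68 genes were bright enough to be tested, and 26 probe sets were too dim, which left 17 genes without a test. Hsp90aa1, Hspa8, Hspa1b and Ppia lie only on probe sets that name several genes, and they were not analysed here.

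The cirrhotic group held 3 arrays of liver endothelial cells from adult male Wistar rats put through a protocol that induces cirrhosis, and the control group held 3 arrays of the same cells from control Wistar rats. The cells had been captured on antibody-coated magnetic beads after collagenase perfusion of the liver. The labels do not name the agent that induced cirrhosis, the antibody's target, the controls' sex or age, or the number of rats behind an array, so p-values measure the spread between arrays. Each value is a signal, a scaled fluorescence intensity of 1 probe set on 1 Affymetrix array.

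The trimmed mean signal was 399.2 to 399.6 and the median 177.7 to 200.9 on all 6 arrays. The deposited signals are scaled, so these near-equal trimmed means do not measure how bright the arrays were before scaling. All 13 measured markers of endothelium were present in both groups, and all 13 were lower in cirrhotic arrays, with summed signals of 24387 to 27594 in cirrhotic and 52359 to 57177 in control arrays. Markers of stellate cells and myofibroblasts summed to 18459 to 31325 in cirrhotic and 2833 to 4915 in control arrays, and 12 of 13 tested were higher. Markers of bile duct cells summed to 5246 to 13691 in cirrhotic and 775 to 1544 in control arrays, with 7 of 8 higher. The smooth muscle actin gene Acta2, a defining marker of myofibroblasts, read 97.3, 51.6 and 37.9 on cirrhotic arrays, against 20.9, 14.7 and 17.2 on control arrays, too dim to test. Of the other marker lists, 4 of 13 hepatocyte, 5 of 10 T and NK cell, 2 of 3 B and plasma cell and 1 of 1 erythroid genes were higher and none lower, and of 7 macrophage genes 2 were higher and 1 lower. In such bulk samples, fewer cells of a type and less RNA per cell cannot be told apart. The part that these cell types had in the chaperone differences was not tested.

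Chaperones bind unfolded proteins and help them reach or keep their native shape. In the cytosol, HSP70 works in cycles with J-domain proteins, which deliver clients, and with nucleotide exchange factors, while the CCT ring folds actin and tubulin and the small heat shock proteins hold aggregating clients. Heat shock factor 1 switches many of these genes on together when proteins misfold. The endoplasmic reticulum (ER) has its own HSP70 (Hspa5, also called BiP) and HSP90 (Hsp90b1), the lectins calnexin and calreticulin for glycoproteins, disulphide isomerases, and prolyl isomerases that act on proline-rich clients such as procollagen. The unfolded protein response raises many of the ER genes, and mitochondria fold imported proteins with Hspa9 and with the Hspd1 and Hspe1 chaperonin.

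Across all members, rises and falls were found side by side. All calls were higher in cirrhotic arrays for prolyl isomerases of the ER (4 of 7 tested) and mitochondrial chaperones (4 of 6). All were lower for cytosolic HSP70 and HSP110 genes (2 of 4) and cytosolic J-domain proteins (2 of 14). The J-domain share was near the 12.7% of all genes called lower, and 6 of the 14 differences were positive. With no filter, or without cirrhotic array 1 or 3 or control array 2 or 3, 0 of the 14 were called. Without cirrhotic array 1 or control array 3, 0 of the 4 HSP70 and HSP110 genes were. Among the 82 probe sets, 15 were higher and 9 lower in cirrhotic arrays (limma, Benjamini-Hochberg adjusted p under 0.05). Of all 9519 tested probe sets, 12.3% were called higher and 13.2% lower, 25.4% in all, against 29.3% of the members. With 1 probe set per gene, the brightest, 14 of 68 genes were higher and 7 lower, beside 12.7% of all genes in each direction and 25.5% in both together. The share of chaperone genes called, 30.9%, was thus near that of all genes. The groups did not overlap for 34 of the 68 genes, against 45.2% of all genes. Without cirrhotic array 1 or control array 3, 11 of the 82 probe sets were called, and without control array 2, 14, while 14.35%, 14.09% and 19.42% of all probe sets were.

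Of 22 tested ER genes, 6 were higher and 2 lower, and their median difference was 0.24 on the log2 scale. Of 38 tested genes of the cytosol and nucleus, 4 were higher and 5 lower, with a median of 0.14. Without cirrhotic array 1, control array 1 or control array 2, 3 ER genes were higher, and the cytosolic genes lower numbered 1 without cirrhotic array 1, 2 without control array 2 or 3, 3 without cirrhotic array 3 and 8 without cirrhotic array 2. Of 6 tested mitochondrial genes, 4 were higher and 0 lower, with a median of 0.51, and the count was 2 without cirrhotic array 1 or control array 1 and 1 without control array 3. The median over all tested probe sets was -0.02. The ER median was 0.0923 without cirrhotic array 1 and 0.14 with the lowest 60% left out or with the mean over a gene's probe sets. The cytosolic median was 0.0558, 0.0673 and 0.0785 without cirrhotic array 2, control array 1 or control array 3, between 0.0607 and 0.0823 with median centring, quantile normalization or the lowest 60% left out, and 0.0087 with no filter. No p is given for these medians, since genes are not replicates. All differences are cirrhotic minus control in log2(signal + 16), a scale that understates the change of dim genes, and the scaling of the arrays matters to the balance: centring each array on its median gave 13 member probe sets higher and 12 lower.

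**Figure D1:**
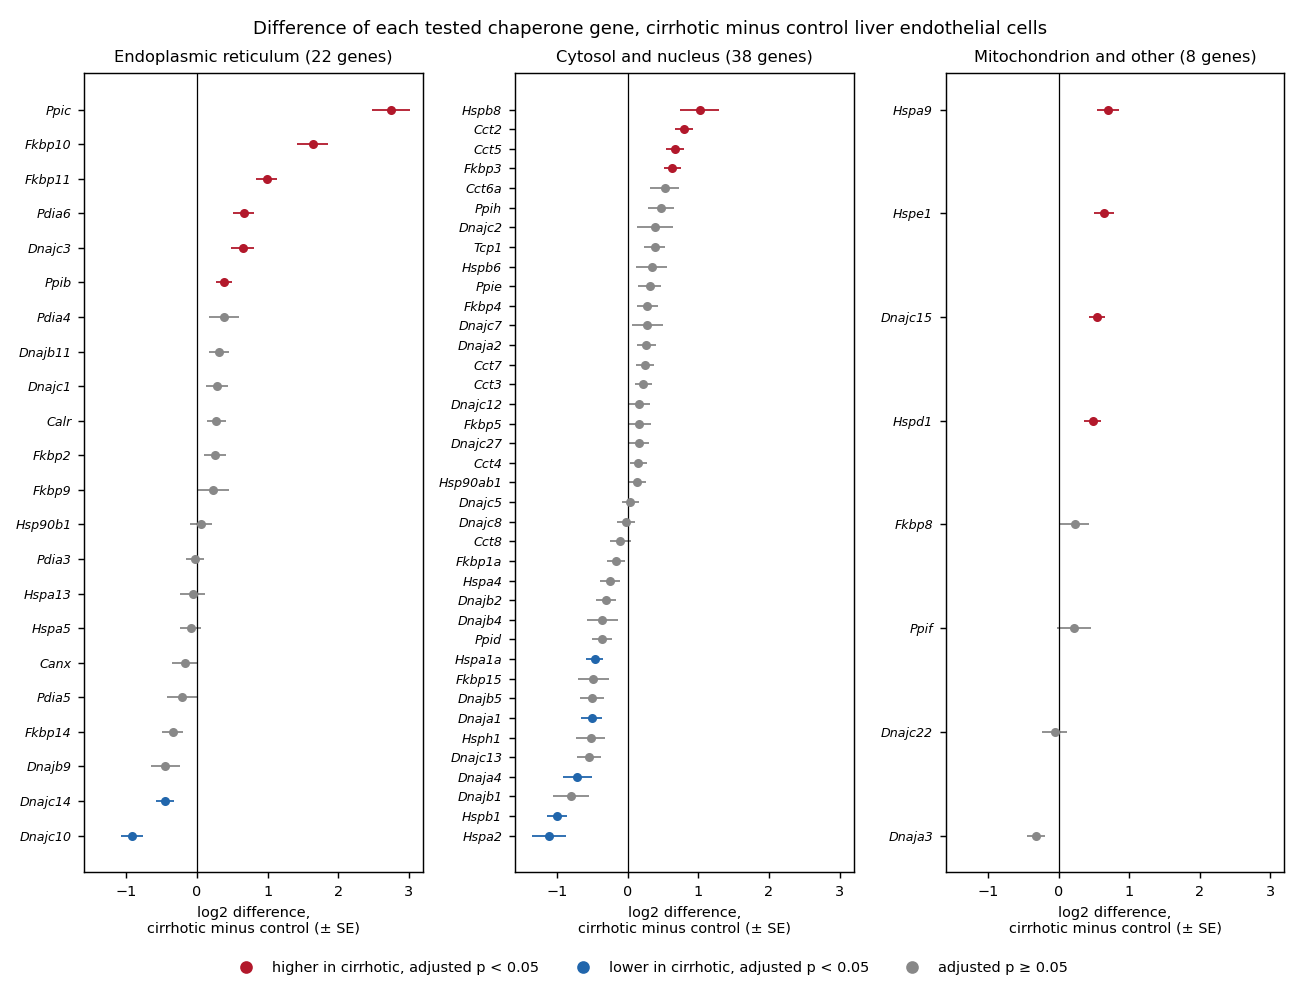
Log2 difference, cirrhotic minus control, of the 68 tested chaperone genes on the brightest probe set of each, with bars of ± SE (n = 3 arrays per group). The ER panel reaches highest, with Ppic at 2.75, and the cytosolic panel holds the lowest value, Hspa2 at -1.11, while Hspa5, Hsp90b1, Pdia3 and Hsp90ab1 lie close to 0.

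The ER prolyl isomerases had 4 of 7 tested genes higher and 0 lower, among them both of the largest rises of any member. Ppic encodes cyclophilin C, a prolyl isomerase of the secretory pathway. Its signals were 945.1, 456.5 and 644.1 on cirrhotic arrays 1, 2 and 3, against 79.1, 104.8 and 69.9 on control arrays 1, 2 and 3, the order used for every gene below. Every cirrhotic array lay far above the highest control array. The difference was 2.75 (SE 0.26, adjusted p = 0.000717), and the mean signal was 682 ± 246 in cirrhotic and 84.6 ± 18.1 in control arrays (SD, n = 3 each).

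Fkbp10 encodes FKBP65, an ER chaperone of procollagen whose loss causes brittle bones in humans. It read 753.5, 401.3 and 498.1 on cirrhotic arrays, against 155.8, 160.7 and 164.1 on control arrays. The control values were nearly alike and the cirrhotic values spread widely, with no overlap, and the difference was 1.64 (SE 0.22, adjusted p = 0.00199). Fkbp11, an ER member of the same family that is abundant in secretory cells, read 385.7, 421.5 and 324.7 on cirrhotic arrays, against 187.3, 197.5 and 161.9 on control arrays. It rose by 0.98 (SE 0.15, adjusted p = 0.00352), again with separate groups.

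Ppib encodes cyclophilin B, which belongs with P3h1 and Crtap to the complex that hydroxylates single prolines of collagen. Its signals were 4519.6, 3822.2 and 3673.8 on cirrhotic arrays, against 3121.3, 2841.6 and 3229.0 on control arrays. The groups did not overlap and the difference was 0.38 (SE 0.12, adjusted p = 0.0458). This call rests on nearly every array: without cirrhotic array 1 or 2 or any of the 3 control arrays the adjusted p was 0.0625 to 0.142, and it was 0.124 with each array centred on its median, 0.0746 with no filter on dim probe sets and 0.0788 with eBayes without a trend.

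The remaining ER prolyl isomerases were not called. Fkbp2 differed by 0.26, Fkbp9 by 0.23 and Fkbp14, mutated in a human connective tissue disorder, by -0.35 (adjusted p = 0.255, 0.491 and 0.119). Fkbp9 read 1672.1, 865.7 and 1154.7 on cirrhotic arrays, against 1024.0, 1069.5 and 946.3 on control arrays, so that cirrhotic array 2 was the lowest of all 6. For Ppic, Fkbp10, Fkbp9 and also Fkbp14, cirrhotic array 1 was the highest and array 2 the lowest of the group, whereas array 3 was the lowest for Fkbp11, Ppib and Fkbp2. The summed markers of stellate cells and myofibroblasts were 31325, 18459 and 23945 on cirrhotic arrays 1, 2 and 3. With 3 arrays these orders are a description only, and the part of these cells in the result was not tested.

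Other enzymes that fold and modify collagen were followed as a list of 12 genes on the array. Of these 11 were tested, 3 rose and 0 fell (median 0.03), beside 12.7% of all genes called in each direction. Plod2, a lysyl hydroxylase of collagen, rose by 2.69 (SE 0.34, adjusted p = 0.00166). Serpinh1, the collagen chaperone HSP47, rose by 0.70 (SE 0.16, adjusted p = 0.0163), and P3h1 by 0.64 (SE 0.17, adjusted p = 0.0319). Crtap, of the same complex as P3h1 and Ppib, had a difference of -0.17 and overlapping groups (adjusted p = 0.594). The prolyl hydroxylase subunits P4ha1 and P4ha2 had differences of -0.13 and -0.36 (adjusted p = 0.742 and 0.0852). P4hb, a disulphide isomerase that is also the other subunit of that enzyme, had a difference of 0.26 (adjusted p = 0.158).

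**Figure D2:**
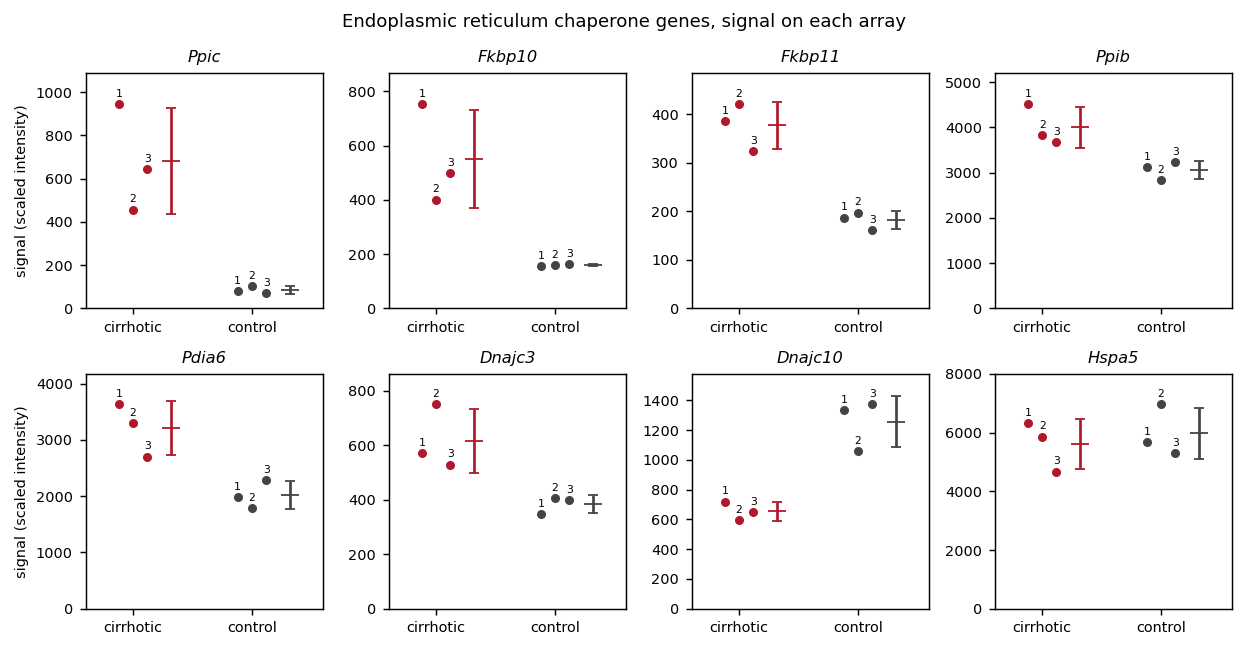
Signal of 8 ER chaperone genes on each array, in scaled intensity, with points numbered by array and bars for the mean ± SD of 3 arrays. Cirrhotic points lie above all control points for Ppic, Fkbp10, Fkbp11, Ppib, Pdia6 and Dnajc3 and below them for Dnajc10, and the groups overlap for Hspa5.

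The disulphide isomerases form and shuffle the cysteine bonds of secreted proteins, and 1 of 4 tested was called. Pdia6 read 3633.1, 3301.3 and 2701.4 on cirrhotic arrays, against 1982.3, 1785.0 and 2284.1 on control arrays. It rose by 0.66 (SE 0.15, adjusted p = 0.0154) with no overlap, but the adjusted p was 0.0509 to 0.0623 without cirrhotic array 1, control array 1 or control array 2. Pdia4, also known as ERp72, read 1076.6, 1012.7 and 822.5 on cirrhotic arrays, against 744.8, 555.2 and 970.3 on control arrays. Its groups overlapped through control array 3, and the difference of 0.38 had a 95% interval of -0.12 to 0.87 (adjusted p = 0.227).

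Pdia3, or ERp57, works with calnexin and calreticulin on glycoproteins. It read 3300.4, 2871.5 and 2587.5 on cirrhotic arrays, against 2850.7, 2812.3 and 3264.2 on control arrays. The ranges nearly coincided, and the difference of -0.03 had an interval of -0.32 to 0.26 (adjusted p = 0.879). Its sign turned with quantile normalization, to 0.04. Pdia5 had a difference of -0.21 (adjusted p = 0.493), and Pdia2 read 1.4 to 2.3 on cirrhotic and 1.1 to 2.3 on control arrays and was not tested.

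Calreticulin and calnexin hold newly made glycoproteins until they are folded. Calr read 3824.4, 4455.4 and 3207.1 on cirrhotic arrays, against 3160.1, 2929.1 and 3346.2 on control arrays. Cirrhotic array 3 lay among the controls, and the difference of 0.27 was not called (interval -0.04 to 0.59, adjusted p = 0.178). Without cirrhotic array 3 the adjusted p was 0.0454, and with another array left out it was as high as 0.413. Canx read 2336.3, 3087.7 and 2038.2 on cirrhotic arrays, against 2763.9, 2370.7 and 3231.5 on control arrays. Its groups overlapped throughout (difference -0.17, interval -0.59 to 0.24, adjusted p = 0.513), and its other tested probe sets gave 0.30 and -0.03.

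The HSP70 and HSP90 genes of the ER, 3 of 3 tested, were not called. Hspa5 read 6316.5, 5863.8 and 4673.5 on cirrhotic arrays, against 5666.5, 6966.8 and 5313.1 on control arrays, at percentiles 98.79 to 99.27 of the cirrhotic and 98.92 to 99.5 of the control arrays' signals. The groups overlapped, and the difference of -0.09 had an interval of -0.43 to 0.25 (adjusted p = 0.681). Hsp90b1, the ER HSP90 also called GRP94, read 3669.3, 4179.8 and 3065.2 on cirrhotic arrays, against 3305.8, 3057.6 and 4159.7 on control arrays. Its difference was 0.05, with an interval of -0.31 to 0.42 (adjusted p = 0.835), and turned to -0.02 with each array centred on its median. Hspa13, a microsomal relative of HSP70, had a difference of -0.06 (adjusted p = 0.827).

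The ER J-domain proteins went both ways. Dnajc3, or p58IPK, which is raised in the unfolded protein response, read 570.7, 750.7 and 528.7 on cirrhotic arrays, against 347.0, 405.6 and 398.6 on control arrays. It rose by 0.65 (SE 0.16, adjusted p = 0.0233) with no overlap, and the adjusted p was 0.0504 to 0.0835 without cirrhotic array 1 or any of the 3 control arrays. Dnajc10, or ERdj5, a reductase that opens disulphide bonds of proteins bound for degradation, read 719.3, 594.1 and 646.8 on cirrhotic arrays, against 1336.3, 1057.8 and 1373.4 on control arrays. It fell by 0.92 (SE 0.15, adjusted p = 0.00443) with separate groups, while its other tested probe set gave -0.34 and was not called (adjusted p = 0.321).

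Dnajc14, an ER membrane protein known to aid the export of receptors, read 296.7, 279.4 and 305.4 on cirrhotic arrays, against 381.6, 401.5 and 441.9 on control arrays. It fell by 0.45 (SE 0.12, adjusted p = 0.0323), and its other tested probe set gave -0.35 (adjusted p = 0.121). The groups were separate, yet the adjusted p was 0.0658 to 0.114 when cirrhotic array 1 or 2 or any control array was left out. Dnajb9, Dnajb11 and Dnajc1, J-domain partners of Hspa5, were not called, with differences of -0.45, 0.31 and 0.29 (adjusted p = 0.147, 0.139 and 0.207).

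The ER stress element is a promoter sequence through which some factors of the unfolded protein response act. It is written here as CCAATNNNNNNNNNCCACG and was searched on both strands. RefSeq windows from 250 bases before to 50 bases after the gene's start (assembly GRCr8) were found for 70 of the 85 genes. Of those 70 windows, 5 held the element, against 22 of all 33469 windows, or 0.0657%. The 5 are shown because they name which ER chaperones carry the textbook element, and capitals mark the element in either orientation, in the 5′ to 3′ direction of the gene. They lie at chr3:38452953-38453011 (plus strand) for Hspa5, chr7:23012327-23012489 (minus) for Hsp90b1, chr19:40213117-40213173 (plus) for Calr, chr10:35158049-35158107 (minus) for Canx and chr15:102432514-102432572 (plus) for Dnajc3. The window of Hsp90b1 held 2 matches.
Hspa5: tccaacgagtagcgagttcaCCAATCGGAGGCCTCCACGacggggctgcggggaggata
Hsp90b1: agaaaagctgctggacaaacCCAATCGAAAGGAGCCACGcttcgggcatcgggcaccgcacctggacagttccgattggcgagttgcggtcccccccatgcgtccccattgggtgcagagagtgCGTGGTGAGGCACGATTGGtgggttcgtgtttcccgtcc
Calr: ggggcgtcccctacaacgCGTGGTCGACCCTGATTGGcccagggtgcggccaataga
Canx: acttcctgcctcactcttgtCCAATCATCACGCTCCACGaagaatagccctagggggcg
Dnajc3: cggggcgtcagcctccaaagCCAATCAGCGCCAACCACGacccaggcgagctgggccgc

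Of these 5 genes, Dnajc3 was called higher and the other 4 had differences between -0.17 and 0.27 that were not called. A match is a description of the letters in the window and not evidence of a bound factor. Among other genes of the unfolded protein response, 4 of 27 tested were higher and 3 lower, with a median of 0.17. These counts were near the 12.7% of all genes called in each direction. Manf, a secreted ER stress protein, rose by 0.70 (SE 0.17, adjusted p = 0.0187), and Sec61b, a subunit of the ER import channel, rose by 0.63 (SE 0.13, adjusted p = 0.0106). Ero1b, an oxidase that recharges disulphide isomerases, fell by 1.45 (SE 0.22, adjusted p = 0.00352), and Sel1l, an adaptor of ER protein degradation, fell by 0.81 (SE 0.21, adjusted p = 0.0259). Atf4, a transcription factor of the response, fell by 0.49 (SE 0.11, adjusted p = 0.0159).

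In the cytosol, 2 of the 4 tested HSP70 and HSP110 genes fell and 0 rose. All 4 differences were negative, with a median of -0.50, and 3 further genes of the class were too dim to test. The 4 were also negative with quantile normalization and with median centring. Hspa1a, the stress-inducible HSP70, was among the brightest genes of the array. It read 6750.7, 6977.4 and 5432.5 on cirrhotic arrays, against 7875.6, 9846.2 and 8800.8 on control arrays. All cirrhotic values lay below all control values, and the difference was -0.47 (SE 0.13, adjusted p = 0.0292). Without cirrhotic array 1, control array 2 or control array 3 the adjusted p was 0.0599 to 0.0986, and it was 0.0693 with no filter and 0.0617 with eBayes without a trend. Hspa1a is nearly identical in sequence to Hspa1b, so its signal may hold both transcripts.

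Hspa2, an HSP70 best known from the testis, read 86.6, 147.9 and 78.1 on cirrhotic arrays, against 206.2, 228.5 and 278.8 on control arrays. It fell by 1.11 (SE 0.24, adjusted p = 0.0136), the lowest difference of any tested member, with no overlap. Without cirrhotic array 1 or control array 3 the adjusted p was 0.0575 and 0.0577. Hsph1, or HSP110, a nucleotide exchange factor that is induced with Hspa1a by heat, read 1773.3, 2543.8 and 1519.1 on cirrhotic arrays, against 2268.1, 3186.9 and 2867.9 on control arrays. Its groups overlapped through cirrhotic array 2, and the difference of -0.53 was not called (interval -1.01 to -0.04, adjusted p = 0.101). The adjusted p was 0.0228 without that array and 0.0352 with array weights, but as high as 0.256 with another array left out. Hspa4, of the same family, had a difference of -0.25 (adjusted p = 0.215).

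The J-domain proteins of the cytosol had 2 of 14 tested genes lower and 0 higher, beside 12.7% of all genes in each direction. Both belong to the type A partners of HSP70, of which Dnaja2 had a difference of 0.26 and was not called (adjusted p = 0.187). Dnaja1 read 2450.6, 2720.7 and 2629.7 on cirrhotic arrays, against 3011.2, 4367.0 and 3871.6 on control arrays. It fell by 0.51 (SE 0.15, adjusted p = 0.0385) with no overlap, and its other probe set fell by 0.62 (adjusted p = 0.0302). Leaving out any array other than control array 1 gave an adjusted p of 0.0557 to 0.125, while quantile normalization gave 0.0524, no filter 0.0607 and eBayes without a trend 0.0571. Dnaja4 read 565.2, 769.6 and 573.9 on cirrhotic arrays, against 811.8, 1290.2 and 1088.6 on control arrays. It fell by 0.72 (SE 0.20, adjusted p = 0.0367), and its other probe set by 0.94 (adjusted p = 0.0243), but without cirrhotic array 1 or 3 or control array 2 or 3 the adjusted p was 0.0723 to 0.124, and it was 0.0505 with no filter.

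Dnajb1, or HSP40, the classic heat-induced partner of HSP70, read 1866.8, 2634.0 and 1382.8 on cirrhotic arrays, against 2533.4, 4054.6 and 3581.1 on control arrays. Cirrhotic array 2 overlapped with control array 1, and the difference of -0.81 was not called (interval -1.40 to -0.21, adjusted p = 0.0531). It passed without cirrhotic array 2 or control array 1, at an adjusted p of 0.0169 and 0.0414, with median centring at 0.0369 and with array weights at 0.0209. With another array left out the adjusted p was as high as 0.156. The other probe set of Dnajb1 gave -0.63 and was not called (adjusted p = 0.163). Dnajc13, an endosomal protein, and Dnajb5 had no overlap and differences of -0.55 and -0.51 (adjusted p = 0.0531 and 0.0567). The other 9, with Dnaja2 among them, lay between -0.36 for Dnajb4 and 0.38 for Dnajc2, none of them called.

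Hspb1, or HSP27, a small heat shock protein that binds actin filaments and unfolded clients, had the smallest adjusted p of the 7 genes that fell. It read 3394.5, 3286.4 and 2869.2 on cirrhotic arrays, against 5749.3, 7785.9 and 5835.7 on control arrays. The highest cirrhotic value was well under the lowest control value, the difference was -1.01 (SE 0.14, adjusted p = 0.00242), and the call held when any 1 array was left out. Hspb8, or HSP22, which acts with the co-chaperone Bag3 to clear misfolded proteins, moved the other way. It read 199.3, 376.8 and 410.2 on cirrhotic arrays, against 170.5, 160.4 and 115.5 on control arrays. It rose by 1.02 (SE 0.28, adjusted p = 0.0315), while its other probe set gave 0.75 (adjusted p = 0.0807), and leaving out any array other than cirrhotic array 1 gave an adjusted p of 0.0574 to 0.109. It was 0.0533 with no filter and 0.0935 with array weights.

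**Figure D3:**
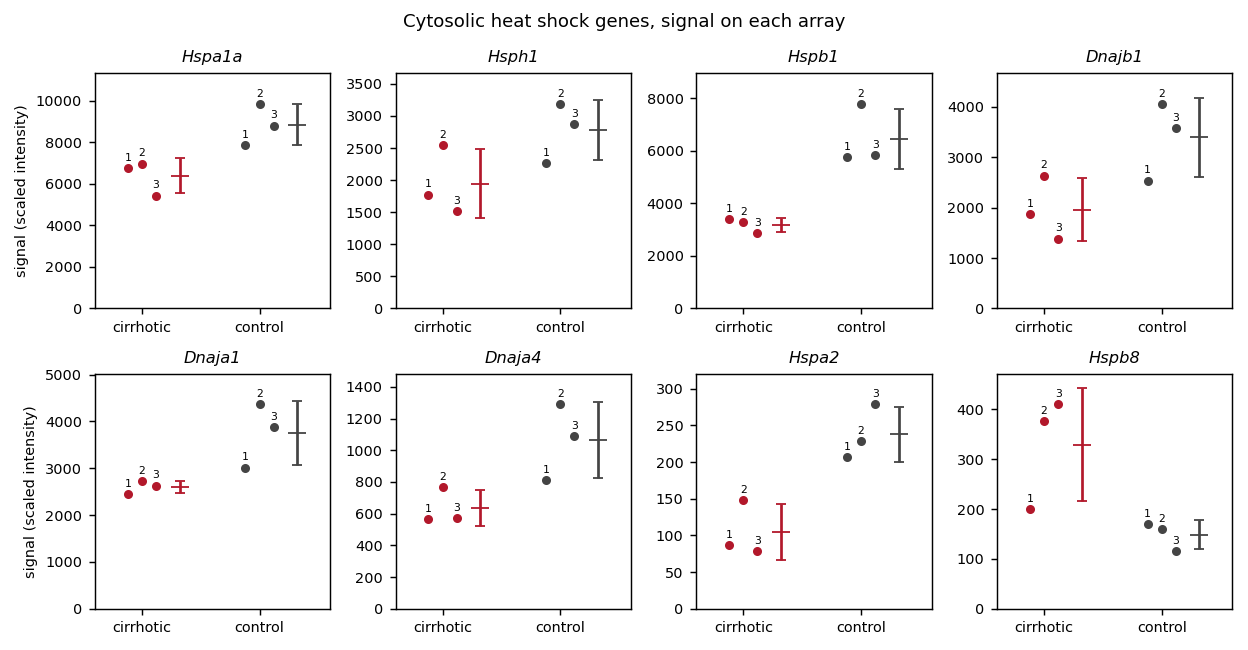
Signal of 8 cytosolic heat shock genes on each array, in scaled intensity, with points numbered by array and bars for the mean ± SD of 3 arrays. Cirrhotic points lie below all control points for Hspa1a, Hspb1, Dnaja1, Dnaja4 and Hspa2 and above them for Hspb8, and the groups overlap for Hsph1 and Dnajb1.

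Other heat shock factors and cytosolic co-chaperones had 2 of 22 tested genes higher and 3 lower, with a median of 0.00. These counts were near the 12.7% of all genes called in each direction. Bag3 read 1750.8, 2628.8 and 1426.2 on cirrhotic arrays, against 3751.5, 3910.7 and 3839.2 on control arrays, and fell by 1.03 (SE 0.21, adjusted p = 0.0100). Bag5 fell by 0.65 and Bag1 rose by 0.52, both of them nucleotide exchange factors of HSP70 (adjusted p = 0.0270 and 0.0284). Pfdn1, a subunit of prefoldin, which passes actin and tubulin to CCT, rose by 0.71 (SE 0.14, adjusted p = 0.00890). Hsf4, a heat shock factor best known from the lens, fell by 0.64 (adjusted p = 0.0320), while Hsf1 had a difference of -0.02 (interval -0.35 to 0.31, adjusted p = 0.932).

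Immediate early genes are switched on within minutes of stimulation or handling. In the same arrays 10 of 17 tested were lower and 1 higher, beside 12.7% of all genes in each direction. Their summed signal was 56524 to 70068 in cirrhotic and 90321 to 97482 in control arrays. Egr1 fell by 0.65 (SE 0.08, adjusted p = 0.00131) and Klf2 by 0.97 (SE 0.14, adjusted p = 0.00294), while Myc rose by 1.36 (SE 0.19, adjusted p = 0.00222). The part of handling in the lower heat shock genes was not tested. Endothelial markers were also lower in these arrays, as given above.

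HSP90 was represented by Hsp90ab1, the constitutive cytosolic form, which matures kinases and hormone receptors. It read 6197.1, 6836.4 and 5105.6 on cirrhotic arrays, against 5116.1, 6206.9 and 5174.7 on control arrays. The groups overlapped, and the difference of 0.13 had an interval of -0.17 to 0.44 (adjusted p = 0.498). Its steroid receptor partners were not called either. Fkbp4 read 694.1, 739.1 and 933.0 on cirrhotic arrays, against 651.0, 665.0 and 612.1 on control arrays, without overlap but with a difference of 0.28 and an interval of -0.06 to 0.62 (adjusted p = 0.199). Fkbp5 read 275.2, 286.9 and 204.6 on cirrhotic arrays, against 240.0, 223.8 and 211.7 on control arrays, a difference of 0.16 with an interval of -0.22 to 0.54 (adjusted p = 0.506).

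The CCT chaperonin had 7 of 8 subunits with positive differences and a median of 0.31, and the 7 stayed positive with quantile normalization and with median centring. Of the 8, 2 were called and both rose. That share of 25% was near the 25.5% of all genes called in either direction, of which 12.7% were higher. With only arrays 2 and 3 of each group and array number as a block, 0 of the 8 were called. Cct2 read 1624.3, 1557.6 and 1369.1 on cirrhotic arrays, against 808.9, 905.2 and 892.7 on control arrays, and rose by 0.79 (SE 0.13, adjusted p = 0.00412). Cct5 read 2684.5, 2912.4 and 2242.5 on cirrhotic arrays, against 1575.5, 1668.9 and 1654.3 on control arrays, and rose by 0.67 (SE 0.13, adjusted p = 0.00841). Both groups were fully separate for both subunits, and both calls held with any 1 array left out.

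Tcp1, the alpha subunit, read 2230.5, 1969.2 and 2057.3 on cirrhotic arrays, against 1748.8, 1770.5 and 1305.9 on control arrays. Its groups did not overlap, but the difference of 0.38 was not called (interval 0.04 to 0.73, adjusted p = 0.0941), except with array weights (adjusted p = 0.0290). Cct6a, Cct7, Cct3 and Cct4 had differences of 0.52, 0.24, 0.22 and 0.15, and Cct8, the dimmest subunit, had -0.11 (adjusted p = 0.629). Differences between subunits were not tested.

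Among the 8 tested cytosolic and nuclear prolyl isomerases, 1 was called. Fkbp3, a nuclear FKBP, read 558.7, 551.1 and 532.6 on cirrhotic arrays, against 340.3, 334.0 and 371.7 on control arrays. The arrays of a group were nearly alike, and it rose by 0.63 (SE 0.12, adjusted p = 0.00768). Ppih, a cyclophilin of the spliceosome, had a difference of 0.47 (adjusted p = 0.0936), Ppid, or cyclophilin 40, had -0.36 (adjusted p = 0.107), and Fkbp1a, the target of tacrolimus, had -0.17 (adjusted p = 0.351), with its other tested probe sets at 0.09 and 0.01.

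The mitochondrial HSP60, HSP10 and HSP70 genes all rose, 3 of 3 tested. Hspa9, or mortalin, which pulls proteins through the inner membrane, read 1002.2, 1382.4 and 1107.9 on cirrhotic arrays, against 720.0, 640.6 and 765.2 on control arrays. It rose by 0.69 (SE 0.16, adjusted p = 0.0155). Its other tested probe sets gave 0.53 (adjusted p = 0.0364) and 0.14 (adjusted p = 0.665), and without control array 2 the adjusted p of the brightest was 0.0536.

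Hspd1 (HSP60) forms the folding chamber and Hspe1 (HSP10) its lid. Hspd1 read 3450.5, 3258.5 and 3916.6 on cirrhotic arrays, against 2424.0, 2732.0 and 2429.8 on control arrays. Hspe1 read 2619.7, 2894.8 and 3075.7 on cirrhotic arrays, against 1713.3, 2205.9 and 1596.9 on control arrays. Neither gene's groups overlapped, and cirrhotic array 3 and control array 2 were the highest of their groups for both. Hspd1 rose by 0.48 (SE 0.11, adjusted p = 0.0187) and Hspe1 by 0.65 (SE 0.15, adjusted p = 0.0162). Without cirrhotic array 1, control array 1 or control array 3 the adjusted p of Hspd1 was 0.0559 to 0.0752, and without control array 1 or 3 that of Hspe1 was 0.0601 and 0.0663.

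Dnajc15, a J-domain protein of the inner membrane, read 532.8, 504.6 and 504.2 on cirrhotic arrays, against 363.4, 332.6 and 345.5 on control arrays. It rose by 0.55 (SE 0.12, adjusted p = 0.0129), which was 0.0547 without cirrhotic array 1 and 0.0508 without control array 3. Dnaja3, the mitochondrial partner of Hspa9, went the other way without being called, with a difference of -0.32 and no overlap (adjusted p = 0.107). Ppif, or cyclophilin D, which regulates the permeability transition pore, had a difference of 0.22 and overlapping groups (adjusted p = 0.540).

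The heat shock element, to which heat shock factors bind, was searched in the same windows as GAANNTTCNNGAA or TTCNNGAANNTTC. It was found in 267 of 33469 windows, or 0.798%, and in 5 of the 70 member windows. They are shown because they name which members carry the textbook element. Capitals mark the element. The stretches lie at chr5:60638393-60638445 (plus strand) for Dnaja1, chr12:10427312-10427364 (plus) for Hsph1, chr14:101193062-101193106 (plus) for Cct4, chr9:64084242-64084287 (minus) for Hspd1 and chr9:64084242-64084299 (plus) for Hspe1.
Dnaja1: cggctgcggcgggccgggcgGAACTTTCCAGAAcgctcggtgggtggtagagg
Hsph1: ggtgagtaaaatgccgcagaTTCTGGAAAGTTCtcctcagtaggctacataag
Cct4: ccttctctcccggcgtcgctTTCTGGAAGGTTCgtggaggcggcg
Hspd1: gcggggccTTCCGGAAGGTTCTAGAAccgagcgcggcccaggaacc
Hspe1: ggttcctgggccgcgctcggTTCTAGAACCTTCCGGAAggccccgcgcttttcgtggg

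Hspd1 and Hspe1 are read in opposite directions from starts 290 bases apart, their windows shared 211 bases, and the capitals of both lines are the same site, which holds 2 overlapping matches. Of the 5 carriers, Hspd1 and Hspe1 were called higher, Dnaja1 was called lower, and Hsph1 (-0.53) and Cct4 (0.15) were not called. No match in another window says only that these letters are not in it. Dnaja2, Dnajb4, Dnajc12, Dnajc15, Dnajc2, Dnajc22, Dnajc24, Dnajc8, Fkbp10, Fkbp3, Hspa12a, Hspb2, Pdia3, Pdia6 and Ppie had no window here.

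Arrays of a group were not interchangeable across the classes. The ER genes had a median deviation from each gene's mean of 0.20, 0.19 and -0.08 on cirrhotic arrays 1, 2 and 3, against -0.06, -0.23 and -0.05 on control arrays. Cirrhotic array 3 thus lay with the controls, and it was the lowest of its group in 15 of 22 ER genes and in 7 of 8 CCT subunits. The mitochondrial genes stood at 0.17, 0.21 and 0.34 on cirrhotic arrays, against -0.25, -0.09 and -0.29 on control arrays. There the groups were separate and cirrhotic array 3 was the highest. Cirrhotic array 3 also had the lowest of the 3 summed signals for markers of bile duct cells (13691, 12516 and 5246 on cirrhotic arrays 1, 2 and 3), macrophages (10911, 9514 and 5282), T and NK cells (6374, 7495 and 3783), B and plasma cells (3742, 4234 and 2936) and erythroid cells (7213, 6936 and 1860). Most of the B and plasma cell sum was Xbp1 (2397.9, 2876.4 and 2215.7), which is also on the unfolded protein response list. That sum is therefore a poor measure of these cells. Cirrhotic array 3 had the highest sum for hepatocytes (55155, 41130 and 76850) and endothelium (24387, 25264 and 27594), and for stellate cells it lay between the others. The part of these cells in the array pattern was not tested.

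The cytosolic HSP70 and HSP110 genes stood at -0.26, -0.08 and -0.52 on cirrhotic arrays, against 0.09, 0.44 and 0.29 on control arrays. The 7 type A and B J-domain genes stood at -0.28, -0.08 and -0.24 on cirrhotic arrays, against 0.00, 0.45 and 0.32 on control arrays. These 7 were chosen with the values known, and over all 14 cytosolic J-domain genes the medians were -0.06, 0.02 and -0.12 on cirrhotic arrays, against 0.00, 0.13 and 0.03 on control arrays, where the groups overlapped. In the HSP70 class and the 7 J-domain genes the groups did not overlap, cirrhotic array 2 was the highest of its group and control array 1 the lowest of its own, for 6 of the 7 J-domain genes. Control array 1 also had the highest ratio of 3′ to 5′ signal of hexokinase, a measure of RNA quality, at 7.42. It was 1.81 to 3.54 on the other control arrays and 2.47 to 2.91 on cirrhotic arrays. The actin ratio was 1.57, 1.22 and 1.53 on control arrays 1, 2 and 3, against 1.23 to 1.27 on cirrhotic arrays. The GAPDH ratio was 1.37, 1.08 and 1.24 on control arrays, and the cirrhotic arrays lay between control arrays 2 and 3. By actin, control array 3 was thus close to control array 1, but it did not have the lowest control median in either class. The part of RNA quality in the array pattern was not tested.

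**Figure D4:**
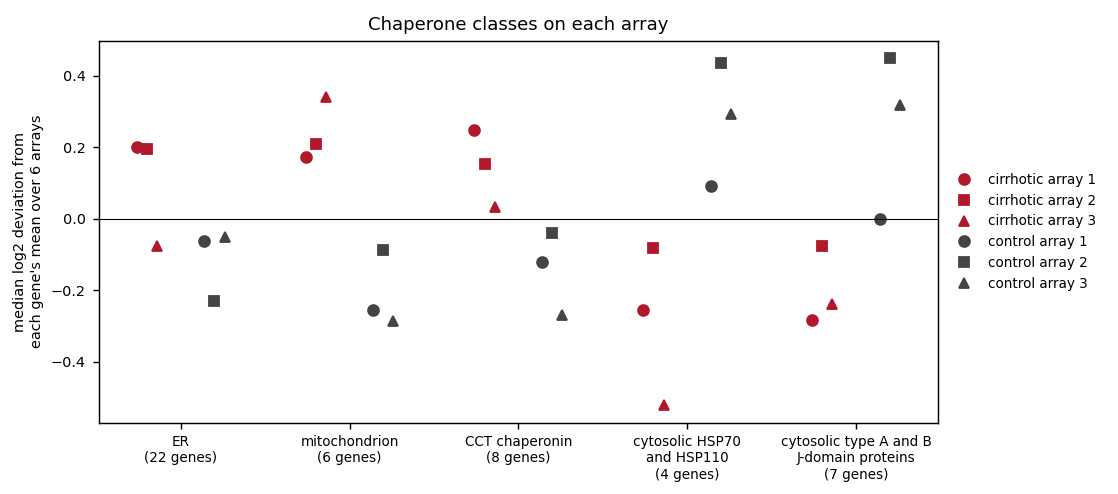
Median deviation of log2(signal + 16) from each gene's mean over 6 arrays, for 5 classes of chaperone genes on each array. Cirrhotic array 3 falls to -0.08 for ER genes and stands at 0.34 for mitochondrial genes, and control arrays reach 0.45 for the J-domain genes of types A and B.

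The 17 genes too dim to test included members of several classes. Hspa12b, an HSP70 relative known from endothelium, read 14.2, 11.6 and 13.9 on cirrhotic arrays, against 95.7, 19.1 and 46.7 on control arrays. The highest bacterial control probe set read 21.7 to 49.9 per array, so the cirrhotic signals of Hspa12b were no brighter than probe sets without a rat target. The same held on control array 2, where that control read 43.9. Ppig, a nuclear cyclophilin, averaged 66.6 ± 3.02 on cirrhotic and 105 ± 5.03 on control arrays (SD, n = 3 each), and Hspb7, known from heart muscle, read 108.4 to 119.6 on cirrhotic and 129.0 to 151.3 on control arrays. Groups did not overlap for Hspa12b, Ppig and Hspb7, as was so for 44.9% of the tested, brighter probe sets of the whole array. They also did not overlap for Dnajb13, Hspb2 and Hspa1l. Dnajb13 read 19.6 to 36.8 on cirrhotic and 11.9 to 19.0 on control arrays, and Hspb2 5.7 to 29.6 and 2.2 to 2.6. Hspa1l read 3.1 to 10.1 on cirrhotic and 21.0 to 28.7 on control arrays. For each of these the dimmer group lay within the bacterial controls. The others were Hspa12a, Hspb3, Fkbp1b, Pdia2, Dnajb3, Dnajb12, Dnajc4, Dnajc6, Dnajc17, Dnajc21 and Dnajc24.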

How the data were processed

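The authors deposited 1 intensity per probe set and array, made after the array maker's manual per the labels' protocols. Neither the software nor the way probes were summarised is stated there. The deposited intensity had a trimmed mean near 400 on every array and was used as it stood, and 0 other value columns were found. Groups came from sample titles, and the control title without a number was called control 1. Values became log2(signal + 16). The dimmest 40% of probe sets by mean over 6 arrays, below a signal of about 127, were dropped. The other 9519 were tested for a cirrhotic-control difference (limma 3.58.1, R 4.3.3, eBayes with trend), two-sided, with Benjamini-Hochberg adjustment and a threshold of 0.05. The method was tested on simulated data with independent noise and far fewer changed probe sets than were called here. That test does not cover differences between arrays in RNA quality or cell content.

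Symbols came from the platform annotation, and all 108 member probe sets matched the GRCr8 gene table. Of 20 genes with several probe sets, 11 had at least 2 tested, of which 4 disagreed in call (Dnajc10, Dnajc14, Hspa9, Hspb8) and 2 in sign (Canx, Fkbp1a). Signals of every array are given for 25 chosen genes, where measured, and for the 8 largest rises and 8 largest falls among called genes (7 fell). Pathway lists name up to 5 genes by smallest p. Signals or values beyond these rules (Dnajc3, Fkbp3, Fkbp9, Dnajc15, Hspa12b, Ppig, Hspb7, Dnajb13, Hspb2, Hspa1l, P4ha1, P4ha2, P4hb, Crtap, Xbp1, Hsf1) were chosen after their values were seen. Members, classes and lists were chosen with earlier results of these data known. Alternatives covered scaling, pseudocount, filter, variance model, array weights, choice of probe set, a block by array number and each array in turn left out. The 3 arrays per group limit the precision.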

Additional observations from a re-analysis of the deposited data

How the results depend on the processing

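The counts of called probe sets and genes were the same, or within 1.5 times, with quantile normalization, with pseudocounts of 1 and 64, with a filter at 60%, with eBayes without a trend, with the mean over a gene's probe sets and without shared-sequence probe sets. Median centring gave 8 cytosolic genes lower, against 5, and a cytosolic median of 0.0607, against 0.14. Without a filter 3 cytosolic genes were lower and the cytosolic median was 0.0087, with 108 members and 15866 probe sets tested. Array weights gave 15 member probe sets lower, against 9, and 10 cytosolic genes lower, with 39.63% of all probe sets called, against 25.43%. Array number as a replicate block could be used only for arrays 2 and 3. It left 4 member probe sets higher and 4 lower, 3 ER genes higher and 0 lower, and 1 cytosolic gene higher and 3 lower, with 9.539% of all probe sets called. Of the 6 mitochondrial genes, 0 were called in that setting. Same-numbered arrays did not deviate together (correlations of 0.0192, -0.0093 and -0.1573), so the numbers were not taken to pair the arrays. Leaving out 1 array gave 8 to 14 member probe sets higher and 2 to 12 lower. It gave 3 to 7 ER genes higher and 1 to 2 lower, with an ER median of 0.0923 to 0.292, and 3 to 4 cytosolic genes higher and 1 to 8 lower, with a cytosolic median of 0.0558 to 0.165. Of the 21 called genes, 8 were called in all 6 of these fits (Hspb1, Cct2, Ppic, Fkbp10, Fkbp11, Cct5, Dnajc10 and Fkbp3). Over all 68 genes and settings, signs turned for 12, of which 0 were called with either sign (Canx, Cct8, Dnajc1, Dnajc22, Dnajc5, Dnajc8, Fkbp9, Hsp90b1, Hspa13, Hspa5, Pdia3 and Pdia5). Pdia3 was 0.0380 with quantile normalization, 0.0893 with array weights and -0.123 to 0.0520 with 1 array left out. Hsp90b1 was -0.0246 with median centring and -0.0520 to 0.182 with 1 array left out. Hspa5 was 0.0546 with array weights and -0.182 to 0.0345 with 1 array left out, and Canx was 0.0348 as a mean over its probe sets. The causes of these changes were not tested. Some settings also bring fewer arrays or a larger number of probe sets. Signal over background limits the dim members, 17 genes of which had no test.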
